A study of Mus musculus with 7 samples.

Results

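Intermediate filaments are the rope-like polymers of the cytoskeleton, and 9 of their genes are described here in 3 groups of mouse cells. The genes are Krt7, Krt8, Krt18, Krt19, Krt20 and Krt23, which encode keratins, Vim for vimentin, Des for desmin and Lmna for the A-type nuclear lamins. They were found as the 9 rows, of 43629 genes counted, whose Ensembl identifier carries one of these symbols in GENCODE release M21. All 9 passed the filter on low counts.

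Messenger RNA was selected by poly(A) and sequenced from 7 libraries of E14 cells, a mouse embryonic stem (ES) cell line of 129/Ola background. The KO ESC group holds 3 libraries of undifferentiated Ago2-knockout cells grown with serum and leukaemia inhibitory factor, 1 of line C4 and 2 of line 5-3. The WT XEN group holds 2 libraries, A and B, of wild-type cells, and the KO XEN group holds 2 libraries of Ago2-knockout cells, 1 of line C4 and 1 of line 5-3. Both XEN groups were differentiated toward extraembryonic endoderm for 5 days in serum-containing RPMI medium to which activin A (10 ng/mL) and all-trans retinoic acid (0.1 µM) were added. Ago2 encodes an Argonaute protein that carries microRNAs. The labels do not say how Ago2 was disrupted, nor whether the replicates were grown as separate cultures. The p-values therefore measure the spread between these libraries. It holds differences between lines in the knockout groups, and between libraries of 1 line it may be technical. The 2 KO ESC libraries of line 5-3 come from 1 line, although the main fit counts them as separate replicates. Wild-type ES cells are not used here. The comparison of WT XEN with KO ESC therefore differs in both genotype and differentiation, which cannot be told apart.

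Keratins form filaments only as pairs of a type I and a type II protein, and Krt18 with Krt8 is the pair that appears earliest in embryonic epithelia. In the early mouse embryo this pair marks the trophectoderm and the extraembryonic endoderm, and parietal endoderm is known for carrying vimentin beside its keratins. Vimentin and desmin are type III proteins that can polymerise on their own, vimentin mainly in mesenchymal cells and desmin in muscle. Lamins form the meshwork under the nuclear envelope, where A-type lamins are low in ES cells and B-type lamins are present in nearly all cells.

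Total counts were 36427340 to 48650113 in 5 libraries, 33389566 in KO XEN 5-3 and 13941826 in KO XEN C4. Ago2 stood at 393.6 and 432 CPM (counts scaled to library size) in WT XEN and at 9.366 to 9.938 CPM in the 3 libraries of line 5-3. In the libraries labelled Ago2 knockout of line C4, it stood at 94.38 CPM in ES cells and 121.7 CPM after differentiation. Where a call for one of the 9 genes changes without both C4 libraries, that value is given beside it. The mitochondrial share of counts was 2.792% to 3.258% in KO ESC, lower in WT XEN (1.943% and 2.639%) and lowest in KO XEN (0.7814% and 0.9787%). The XEN label was checked on 10 primitive endoderm markers, whose summed level was 183.9 to 187.5 CPM in KO ESC, 30990 and 44990 CPM in WT XEN, and 1679 and 2531 CPM in KO XEN. Of these 10 markers, 9 were called lower in KO XEN than WT XEN by edgeR's quasi-likelihood test, against 23.9% of all tested genes. Cubn, an endocytic receptor of visceral endoderm, stood at 8.639 and 88.49 CPM in KO XEN against 8229 and 8323 CPM in WT XEN.

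The genes lie on 5 chromosomes of GRCm38, the assembly also called mm10. Krt7 (chr15:101411043-101430313, plus strand), Krt8 (chr15:101996698-102004482, minus) and Krt18 (chr15:102028180-102032027, plus) lie in the type II keratin cluster, where Krt18 is the type I gene beside its partner. Krt20 (chr11:99428403-99438150), Krt23 (chr11:99477974-99493137) and Krt19 (chr11:100140810-100148665) lie in the type I cluster, all on the minus strand. Vim is at chr2:13573927-13582826 and Des at chr1:75360329-75368579, both on the plus strand, and Lmna at chr3:88480147-88509956 on the minus strand. Des shares 220 exon bases with the antisense gene Gm15179, which held between 0 and 3 counts per library. Krt7 shares 77 exon bases with Gm671 and Krt8 shares 101 with Gm36026, both on the opposite strand and not counted here. Counts of Krt8 and Krt18 may also hold or lack reads shared with processed copies, since the handling of such reads is not given in the sources used here.

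RefSeq (GRCm38.p6) gave a window from 250 bases before to 50 bases after a transcription start for 8 of the 9 genes, all except Krt19. The windows are printed to 30 bases after the start for the Krt8 and Krt18 pair, whose levels are compared below, and for Krt20, Vim and Des, the 3 genes whose difference between KO XEN and WT XEN was called under every alternative setting. All read 5′ to 3′ along the gene's strand, and capitals mark matches on either strand to the motifs named after them.
Krt8 (chr15:102004313-102004592, minus strand): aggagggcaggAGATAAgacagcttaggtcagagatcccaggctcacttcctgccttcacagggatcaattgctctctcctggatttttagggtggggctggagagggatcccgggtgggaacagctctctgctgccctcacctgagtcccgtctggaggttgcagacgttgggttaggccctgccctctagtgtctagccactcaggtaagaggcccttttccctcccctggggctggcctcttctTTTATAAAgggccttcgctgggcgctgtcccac
Krt18 (chr15:102027966-102028245, plus strand): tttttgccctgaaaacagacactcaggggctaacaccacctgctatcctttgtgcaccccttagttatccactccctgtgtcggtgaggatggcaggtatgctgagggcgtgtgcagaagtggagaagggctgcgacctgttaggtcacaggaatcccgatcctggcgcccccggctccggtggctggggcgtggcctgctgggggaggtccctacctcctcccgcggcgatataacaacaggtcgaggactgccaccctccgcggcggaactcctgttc
Krt20 (chr11:99438124-99438403, minus strand): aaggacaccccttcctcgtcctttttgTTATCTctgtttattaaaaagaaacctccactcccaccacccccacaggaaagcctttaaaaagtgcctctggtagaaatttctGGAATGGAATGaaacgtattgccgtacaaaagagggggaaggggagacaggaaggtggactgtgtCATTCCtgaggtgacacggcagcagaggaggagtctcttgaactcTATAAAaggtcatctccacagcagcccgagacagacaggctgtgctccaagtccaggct
Vim (chr2:13574061-13574340, plus strand): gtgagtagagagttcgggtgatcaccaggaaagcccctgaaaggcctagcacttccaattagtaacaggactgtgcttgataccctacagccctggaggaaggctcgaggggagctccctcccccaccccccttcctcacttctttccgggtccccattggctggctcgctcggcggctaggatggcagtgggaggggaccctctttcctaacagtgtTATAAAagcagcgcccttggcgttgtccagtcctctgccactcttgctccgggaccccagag
Des (chr1:75360042-75360321, plus strand): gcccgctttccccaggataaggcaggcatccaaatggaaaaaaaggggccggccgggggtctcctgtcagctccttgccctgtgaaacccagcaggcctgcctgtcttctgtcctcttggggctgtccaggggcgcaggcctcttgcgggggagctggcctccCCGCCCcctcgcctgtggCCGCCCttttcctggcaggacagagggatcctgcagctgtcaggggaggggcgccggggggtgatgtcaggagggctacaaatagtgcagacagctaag

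TATAAA, the core of the TATA box, occurred in 13.6% of 32851 RefSeq windows from 250 bases before to 50 after a start. GGGCGG, which Sp1 binds, occurred in 35.7% and TGANTCA, the AP-1 site, in 7.81%. AGATAA, which zinc-finger GATA factors bind, occurred in 11.2% and GGAATG, which TEAD proteins bind, in 14.7%. The CArG box, which serum response factor binds, occurred in 1.63% of the windows and in none of the members' windows. Positions are counted with the first transcribed base as 0. The Krt20 window held TATAAA at -29, AGATAA on the reverse strand at -223 and 3 copies of GGAATG, at -139 and -134, which share a base, and on the reverse strand at -74. The Vim window held TATAAA at -32. The Krt8 window held TATAAA at -1, overlapped by a reverse copy at -3, and AGATAA at -239. The Des window held GGGCGG on the reverse strand at -87 and -69, the Krt7 window held 4 copies of GGGCGG, and 1 Lmna window held GGGCGG on the reverse strand at -52 and TGANTCA at 39. No searched motif was found in the Krt18 or Krt23 window. These are matches of letters and were not tested as binding sites.

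Most of the 9 genes were higher in differentiated cells, and 5 were higher again in KO XEN than WT XEN. The exceptions were Vim, which was not called between WT XEN and KO ESC, and Krt23, which was not called between KO XEN and KO ESC. Against KO ESC, 8 of 9 were called higher in KO XEN, where 34.8% of 18426 tested genes were called higher and 34.3% lower at an adjusted p under 0.05 (edgeR quasi-likelihood test, Benjamini-Hochberg). In WT XEN, 8 of 9 were called higher than in KO ESC, against 32.2% of all genes higher and 30.3% lower. These 8 include Krt23, which passed the filter on low counts only through XEN libraries and so lends no support of its own. With a filter of 1 CPM in 2 libraries, which set Krt23 aside, the count was 7. Between the XEN groups, Krt7, Krt19, Krt20, Vim and Des were called higher in KO XEN and none lower, against 22.3% of all genes higher and 23.9% lower. The median log2 fold change of the 9 genes was 5.76 for KO XEN against KO ESC, 3.52 for WT XEN against KO ESC and 1.52 for KO XEN against WT XEN, where the medians over all genes were -0.07, -0.03 and 0. Each pair of comparisons shares a group of libraries, so they are set side by side and their likeness is not counted as a result. In RNA from whole cultures, fewer cells of a type and less RNA per cell cannot be told apart.

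**Figure D1:**
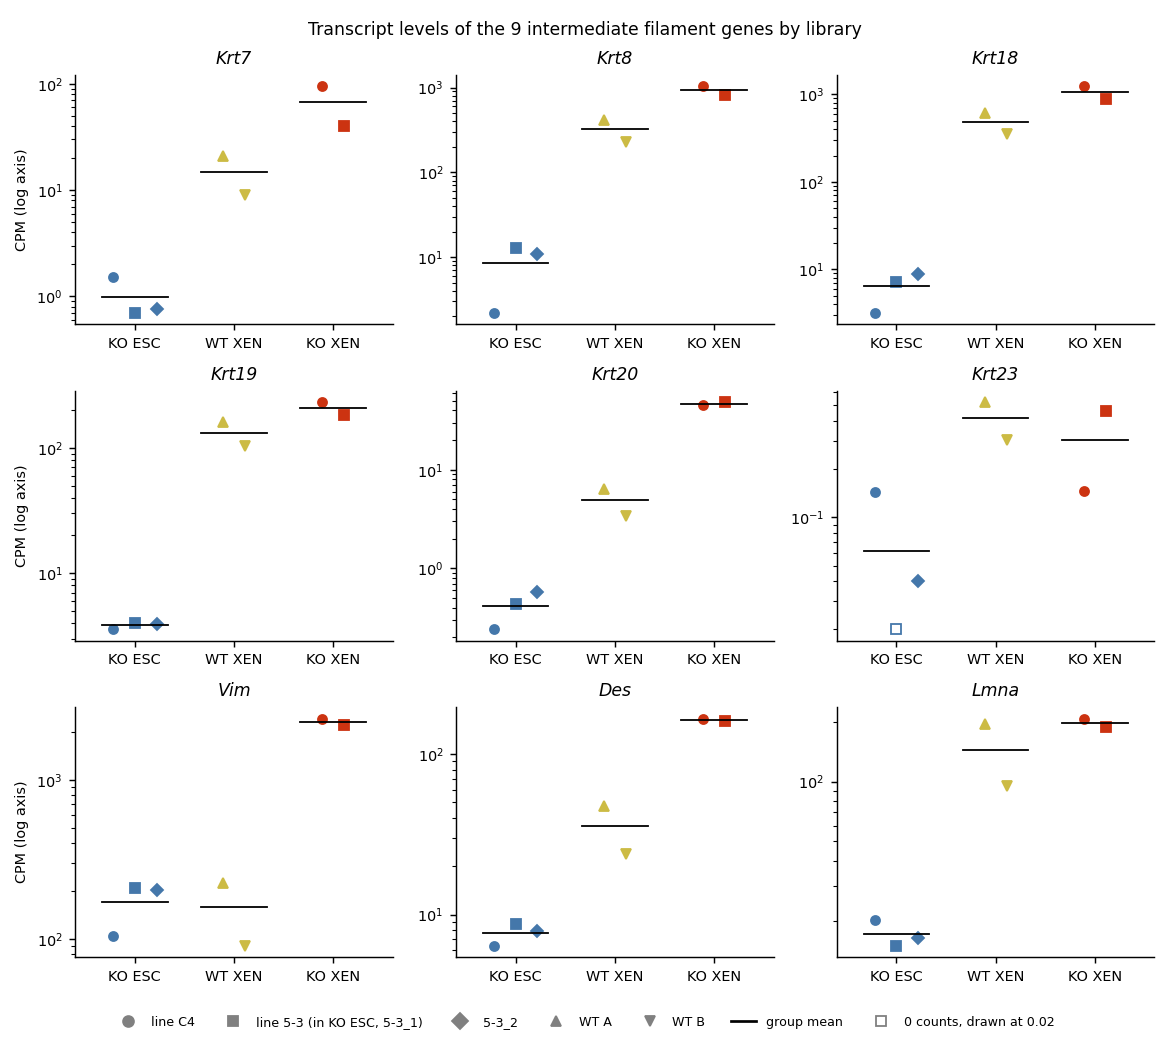
CPM of each gene in each library on a log axis, with points for libraries (shape for line or replicate, colour for group) and bars for group means; an open symbol marks 0 counts. Krt8, Krt18 and Krt19 stand higher in all 4 XEN libraries than in the KO ESC libraries, whereas Vim stands high in KO XEN only, at 2202 and 2423 CPM.

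Krt8, the type II keratin of simple epithelia, stood at 2.184 CPM in KO ESC C4 and at 12.94 and 10.77 CPM in the KO ESC libraries of line 5-3. It stood at 417.3 and 230.5 CPM in WT XEN A and B, and at 1045 and 819.2 CPM in KO XEN C4 and 5-3. The 3 groups did not overlap, and the C4 library was the lowest of all before differentiation and the highest after it. Krt8 rose 37.5-fold in WT XEN (log2 5.23 ± 0.66 SE, adjusted p = 0.000282) and 107.8-fold in KO XEN (log2 6.75 ± 0.70, adjusted p = 6.97e-05) over KO ESC. The difference of KO XEN from WT XEN was 1.52 ± 0.66 on the log2 scale with an adjusted p of 0.0941. Without both C4 libraries that difference was 1.34 with an adjusted p of 0.0366, and over all alternatives its adjusted p ran from 0.00686 to 0.349.

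Krt18, its type I partner, stood at 3.168, 7.181 and 8.946 CPM in KO ESC, at 617.6 and 354.3 CPM in WT XEN and at 1249 and 885.1 CPM in KO XEN. The groups again did not overlap, and the order of libraries within the XEN groups was that of Krt8. Krt18 rose 75.4-fold in WT XEN (log2 6.24 ± 0.47, adjusted p = 2.52e-05) and 165.4-fold in KO XEN (log2 7.37 ± 0.49, adjusted p = 8.35e-06), the largest fold of the 9 genes in both comparisons. The log2 difference between KO XEN and WT XEN was 1.13 ± 0.45 with an adjusted p of 0.0717, and that p ran from 0.0244 to 0.316 over the alternatives. By DESeq2 the adjusted p was 0.0338.

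Scaled by the length of the main transcript, Krt8 stood at 0.4959 and 0.4776 of the level of Krt18 in the WT XEN libraries and at 0.6143 and 0.6793 in KO XEN. In KO ESC the same ratio was 0.506 in C4 and 1.323 and 0.8833 in 5-3. The 2 XEN groups did not overlap in this ratio, and the KO ESC libraries spread on both sides of the KO XEN values. Summed over all member keratins, type II over type I per kilobase was 0.3821 and 0.4083 in the WT XEN libraries, 0.536 and 0.5647 in KO XEN and 0.3188 to 0.8732 in KO ESC. With 2 libraries in each XEN group these ratios carry no test.

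Krt19, a small type I keratin without the tail domain of its relatives, stood at 3.553 to 4.011 CPM in KO ESC, the narrowest spread of the 9 genes there relative to the mean. It stood at 159.4 and 102.9 CPM in WT XEN and at 231.2 and 184.2 CPM in KO XEN. The groups did not overlap, although KO XEN 5-3 and WT XEN A differed by less than the 2 WT XEN libraries did. Krt19 rose 34.2-fold in WT XEN (log2 5.09 ± 0.23, adjusted p = 3.86e-06) and 54.1-fold in KO XEN (log2 5.76 ± 0.23, adjusted p = 1.49e-06). It was 1.58-fold higher in KO XEN than in WT XEN (log2 0.66 ± 0.23, adjusted p = 0.0428). That call was lost in 11 of 14 alternatives, with adjusted p between 0.0108 and 0.22. Without both C4 libraries the log2 difference was 0.49 with an adjusted p of 0.212, and with the replicate block by cell line the adjusted p was 0.0535.

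Krt7, a type II keratin of glandular and ductal epithelia, stood at 1.536, 0.6965 and 0.7605 CPM in KO ESC, at 20.96 and 8.903 CPM in WT XEN and at 95.4 and 39.91 CPM in KO XEN. The groups did not overlap, and the first library of each group was more than 2-fold above the lowest one. Krt7 rose 15.0-fold in WT XEN (log2 3.90 ± 0.54, adjusted p = 0.000461) and 67.7-fold in KO XEN (log2 6.08 ± 0.58, adjusted p = 4.38e-05). It was 4.52-fold higher in KO XEN than in WT XEN (log2 2.18 ± 0.56, adjusted p = 0.0147). Without both C4 libraries the log2 difference was 1.42 with an adjusted p of 0.0714. It was 1.42 with an adjusted p of 0.107 without KO XEN C4 alone and 1.68 with an adjusted p of 0.0879 without WT XEN B.

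Krt20, a type I keratin best known from the intestinal surface and the urothelium, was near the detection limit in ES cells, with 10, 18 and 29 counts (0.24, 0.4323 and 0.5804 CPM). It stood at 6.384 and 3.373 CPM in WT XEN and at 45.23 and 48.34 CPM in KO XEN. No group overlapped another, and the 2 KO XEN libraries lay closer together on the log scale than the 2 WT XEN libraries. Krt20 rose 11.5-fold in WT XEN (log2 3.52 ± 0.39, adjusted p = 0.000144) and 110-fold in KO XEN (log2 6.78 ± 0.41, adjusted p = 5.63e-06). Of the member keratins it had the largest difference between the XEN groups, 9.59-fold higher in KO XEN (log2 3.26 ± 0.41, adjusted p = 0.000647), and this call held in all 14 alternatives with log2 values of 2.87 to 3.72. Its level stayed far below that of the Krt8 and Krt18 pair, at 23.5 and 25.1 CPM per kilobase in KO XEN against 616 and 868.9 for Krt18.

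Krt23, a type I keratin, held 6, 0 and 2 counts in KO ESC, 19 and 11 counts in WT XEN and 2 and 15 in KO XEN. The KO XEN libraries spanned 0.1452 to 0.4615 CPM and overlapped WT XEN at 0.3041 and 0.5206 CPM. Krt23 was called higher in WT XEN than in KO ESC (log2 2.70 ± 0.94, adjusted p = 0.0357), a call lost in 5 of the 13 alternatives that tested it, with adjusted p from 0.0111 to 0.18. The difference of KO XEN from KO ESC was 2.38 ± 1.00 on the log2 scale with an adjusted p of 0.0622. It was 4.23 with an adjusted p of 0.0223 without both C4 libraries and 3.67 with an adjusted p of 0.0179 without KO ESC C4 alone, and over the 12 alternatives that tested it the adjusted p ran up to 0.591. At these counts no difference between KO XEN and WT XEN was detectable (log2 -0.32 ± 0.96, adjusted p = 0.818).

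**Figure D2:**
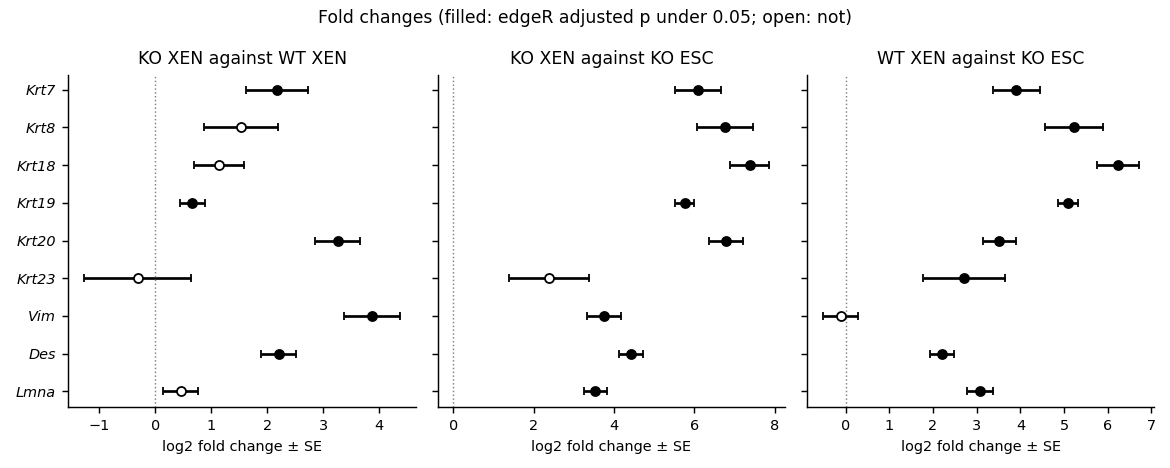
Log2 fold change of each gene with its standard error in the 3 comparisons, with filled points for an edgeR adjusted p under 0.05 and a dotted line at no change. Vim has the largest value between the XEN groups, 3.88, and the value nearest to 0 between WT XEN and KO ESC, -0.12.

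Vim did not follow the keratins. It stood at 103.6, 207.6 and 201.6 CPM in KO ESC, at 224.7 and 90.49 CPM in WT XEN and at 2423 and 2202 CPM in KO XEN. The WT XEN libraries spanned the whole range of KO ESC, whereas both KO XEN libraries lay far above every other library. Vim was 14.7-fold higher in KO XEN than in WT XEN (log2 3.88 ± 0.50, adjusted p = 0.000745), the largest such difference of the 9 genes, and 13.5-fold higher than in KO ESC (log2 3.76 ± 0.42, adjusted p = 0.000109). Both calls held in all 14 alternatives, with log2 values of 3.36 to 4.60 and of 3.41 to 3.92. The difference of WT XEN from KO ESC was -0.12 ± 0.41 on the log2 scale with an adjusted p of 0.819, and it ran from -0.88 without WT XEN A to 0.40 without WT XEN B.

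Des stood at 6.385 to 8.766 CPM in KO ESC, at 47.15 and 23.69 CPM in WT XEN and at 166.5 and 160 CPM in KO XEN. The groups did not overlap, and the 2 knockout lines gave nearly the same level after differentiation. Des rose 4.62-fold in WT XEN (log2 2.21 ± 0.28, adjusted p = 0.000292) and 21.3-fold in KO XEN (log2 4.41 ± 0.30, adjusted p = 8.55e-06). It was 4.61-fold higher in KO XEN than in WT XEN (log2 2.20 ± 0.32, adjusted p = 0.00114), with log2 values of 1.78 to 2.71 and the call kept in all 14 alternatives.

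Markers of mesenchymal and muscle cells also differed between the XEN groups, and their part in the differences of Vim and Des was not tested. Over all genes, 22.3% were called higher in KO XEN than in WT XEN and 23.9% lower. All 6 smooth muscle markers were called higher in KO XEN than in WT XEN, and their summed level was 23.78 to 35.6 CPM in KO ESC, 555.9 and 1235 CPM in WT XEN and 8339 and 9396 CPM in KO XEN. Of 10 fibroblast markers, 6 were called higher and 2 lower, with sums of 15.77 to 27.07, 332.2 to 745.7 and 2610 to 4166 CPM in the same order. In WT XEN against KO ESC, all 6 smooth muscle markers were called higher, and of the 10 fibroblast markers 9 were called higher and 1 lower. The shares over all genes there were 32.2% higher and 30.3% lower. Myocd, Col1a2, Col3a1, Prrx1, Dcn, Lum and Postn passed the filter on low counts only through XEN libraries. Their calls against KO ESC lend no support of their own. Between the XEN groups, the 2 fibroblast markers called lower in KO XEN were the collagen gene Col1a2 and the proteoglycan gene Lum. Lum held 0 counts in both KO XEN libraries and passed the filter only through WT XEN, so its lower call lends no support of its own. Of 6 tested cardiac and skeletal muscle markers 3 were higher, none lower and 3 were not past the threshold, with list sums of 24.22 to 31.28 CPM in KO ESC, 19.48 and 53.03 CPM in WT XEN and 118.8 and 126 CPM in KO XEN. Those higher were Actc1, for cardiac actin, at 86.39 and 88.03 CPM in KO XEN against 0.8494 and 0.553 CPM for WT XEN (log2 6.95 ± 0.59, adjusted p = 0.000199), and the cardiac genes Nkx2-5 (adjusted p = 0.00529) and Tnnt2 (adjusted p = 0.043). Myod1 and Myog, the defining factors of skeletal muscle, held 0 counts in both KO XEN libraries.

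Markers of other keratin-bearing cells were also summed. Their calls stand beside 22.3% of all genes called higher in KO XEN than WT XEN and 23.9% lower. Of 7 mesothelial markers, 4 were called higher in KO XEN than WT XEN and 1 lower, with sums of 30.05 to 34.32 CPM in KO ESC, 32.51 and 93.7 CPM in WT XEN and 221.2 and 247.5 CPM in KO XEN. Wt1, a transcription factor of mesothelium, stood at 14.66 and 12.19 CPM in the WT XEN libraries and at 144.6 and 187.3 CPM in those of KO XEN. It alone made up most of the KO XEN sums. Lrrn4 was the marker called lower, at 5.953 and 4.431 CPM in KO XEN against 67.59 and 9.262 CPM in WT XEN (adjusted p = 0.0179, edgeR). Upk1b and Tcf21 were not called. Of 9 tested trophoblast markers 2 were called higher and 1 lower, while 6 missed the threshold, with sums of 64.71 to 74.62 CPM in KO ESC, 27.34 and 51.84 CPM in WT XEN and 65.92 and 67.66 CPM in KO XEN. Gata3, a transcription factor of trophectoderm and other tissues, was higher at 42.98 and 37.32 CPM in KO XEN against 9.425 and 5.723 CPM for WT XEN (5.30-fold, adjusted p = 0.000928), as was Tfeb (adjusted p = 0.00566). Cdx2 and Gcm1, further factors of that lineage, held 0 counts in both KO XEN libraries. Markers of stratified or surface epithelium summed to 30.39 to 45.8 CPM in KO ESC, to 11.97 and 38.93 CPM in WT XEN and to 38.27 and 89.01 CPM in KO XEN. Of the 5 tested, Krt15 was called higher in KO XEN than WT XEN (adjusted p = 0.0311), none was lower and 4 were not past the threshold. Among these, Sfn, for the epithelial protein stratifin, stood at 72.96 and 26.24 CPM in KO XEN against 27.78 and 6.912 CPM for WT XEN (adjusted p = 0.111). Krt5, the basal keratin of stratified epithelia, stood at 0.1801 CPM or less in every library. The part of these markers in the keratin results was not tested.

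Lmna, the source of lamin A and lamin C, which gene counts cannot separate, stood at 20.21, 14.94 and 16.37 CPM in KO ESC. It stood at 194.1 and 95.5 CPM in WT XEN and at 207.6 and 189 CPM in KO XEN. The 2 XEN groups overlapped, and both lay above KO ESC. Lmna rose 8.43-fold in WT XEN (log2 3.08 ± 0.29, adjusted p = 6.59e-05) and 11.6-fold in KO XEN (log2 3.53 ± 0.29, adjusted p = 2.19e-05), while the difference between the XEN groups was 0.45 ± 0.31 on the log2 scale with an adjusted p of 0.263. Without WT XEN A it was 0.97 with an adjusted p of 0.016, and over all alternatives it ran from 0.02 to 0.97.

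The B-type lamins went the other way on differentiation. Lmnb1 stood at 467.9 to 573.8 CPM in KO ESC, at 204.8 and 213.2 CPM in WT XEN and at 179.4 and 192.5 CPM in KO XEN. It fell by 1.33 on the log2 scale in WT XEN (SE 0.15, adjusted p = 0.000141) and 2.83-fold in KO XEN (SE of the log2 value 0.15, adjusted p = 5.26e-05). Lmnb2 fell by 1.55 and by 1.33 in the same comparisons, and neither gene differed between the XEN groups at the threshold (adjusted p = 0.402 and 0.305). The ratio of Lmna to Lmnb1, both in CPM without length scaling, was 0.02786 to 0.04319 in KO ESC, then 0.448 and 0.9477 in WT XEN and 0.9816 and 1.157 in KO XEN. These 3 ranges did not overlap, although WT XEN A and KO XEN 5-3 differed by less than the 2 WT XEN libraries did.

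The make-up of the 9 transcripts changed with the groups. Per kilobase of main transcript, keratins made up 9.961% to 12.88% of the summed level in KO ESC, then 80.74% and 84.53% in WT XEN and 56.57% and 51.51% in KO XEN. Vim made up 76.29% to 81.02%, then 10.99% and 8.043%, then 39.15% and 43.6% in the same order. The ratio of summed keratin to Vim was 0.1306 to 0.1603 in KO ESC, then 7.347 and 10.51 in WT XEN and 1.445 and 1.181 in KO XEN, so that no library of one group fell within the range of another. With the union of all annotated exons as length, the ratio was 0.2597 to 0.336, 15.52 and 22.17, and 3.063 and 2.509, and the order of the groups was kept. In KO XEN both sides of the ratio were at their highest, with 1596 and 1186 CPM per kilobase of keratin and 1105 and 1004 of Vim.

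**Figure D3:**
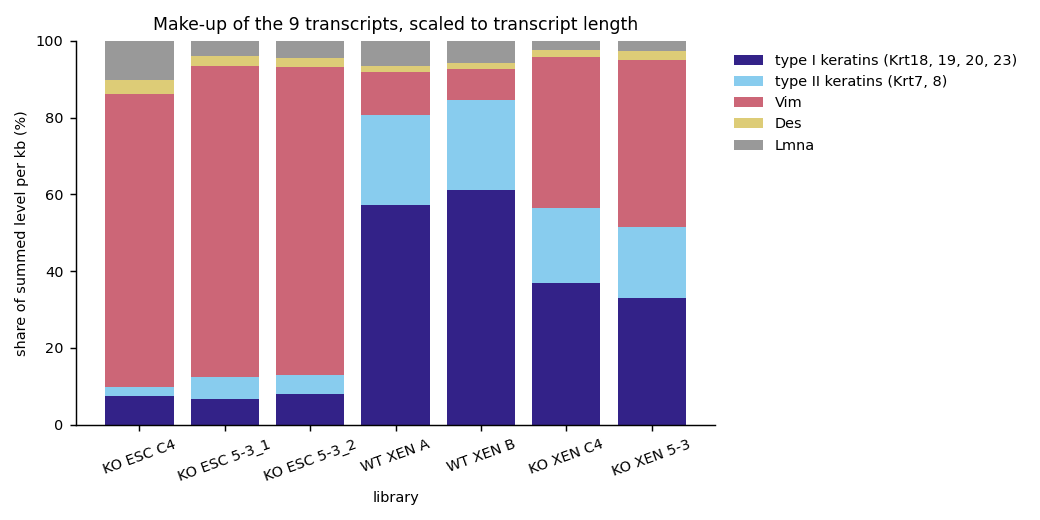
Share of type I keratins, type II keratins, Vim, Des and Lmna in the summed CPM per kilobase of the 9 genes, as 1 stacked bar for each library adding to 100%. Vim fills 76.29% to 81.02% of the KO ESC bars, keratins fill 80.74% and 84.53% of the WT XEN bars, and the KO XEN bars lie between them.

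Within groups, the order of levels per kilobase of main transcript was steady at the top. Vim led in KO ESC, at 47.23 to 94.67 CPM per kilobase. Krt18 led in WT XEN at 429.8 and 246.5, followed by Krt8 at 213.1 and 117.7. Vim at 102.5 and Krt19 at 101.1 could not be ranked beyond their spread in WT XEN, where B gave 41.26 and 65.31. In KO XEN, Vim at 1105 and 1004 was followed by Krt18 at 868.9 and 616 and by Krt8 at 533.7 and 418.4. With the union of all annotated exons as length, Vim stood at 510.8 and 464.3 there, below Krt18 in both libraries. The rank of Vim in KO XEN thus depends on the length used. Per kilobase of main transcript, Lmna at 65.79 and 59.89 and Des at 55.0 and 52.84 were close neighbours in KO XEN. By exon union Des was above Lmna, at 44.36 and 42.62 against 35.57 and 32.37. Krt23 was lowest in every group.

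The 2 WT XEN libraries differed in 1 direction across these genes. All 9 were higher in A than in B, by 1.55-fold to 2.48-fold for the 8 genes other than Krt23, with a median log2 ratio of 0.96 where the median over all tested genes was 0. Across all tested genes, 48.3% were higher in A. In KO XEN, 7 of 9 were higher in C4 than in 5-3, against 47.1% of all tested genes, with a median log2 ratio of 0.23 over the genes other than Krt23. In KO ESC, 6 of 9 were lower in C4 than in each 5-3 library, and Krt8 showed the lowest ratios, 0.1687 and 0.2029. Across all tested genes there, 47.9% were higher in C4 than in 5-3_1 and 46.7% higher than in 5-3_2.

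Line C4 thus started lower and ended higher for several genes, and the difference between lines in the change from KO ESC to KO XEN was tested as an interaction. Of the 4 combinations of line and state, only KO ESC 5-3 held 2 libraries, so the spread came from that pair and the WT XEN pair (2 residual degrees of freedom), and the lone libraries were assumed to vary like them. Krt8 changed by 8.90 on the log2 scale in C4 and by 6.11 in 5-3, a difference of 2.79 ± 0.61 (unadjusted p = 0.00592 in edgeR's test, adjusted p = 0.368). Krt18 changed by 8.62 and 6.78, a difference of 1.84 ± 0.58 with an adjusted p of 0.442. By edgeR, 0% of genes were called in this test, and 1844 had an unadjusted p under 0.05. DESeq2, which called 1.69% of 13284 genes in the same design, called 1 of the 9 genes, Krt8, with a difference of 2.76 and an adjusted p of 0.000736.

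Beyond the members, the table held 47 further keratin genes, of which 8 had 0 counts in all libraries, 16 could be tested and 6 reached a mean of 1 CPM in some group. Between the XEN groups 3 were called higher in KO XEN, none lower, and 13 were not past the threshold, against 22.3% of all genes higher and 23.9% lower. Against KO ESC, 2 were higher and 4 lower in KO XEN, beside 34.8% and 34.3% of all genes. In WT XEN, 1 was higher and 9 lower, beside 32.2% and 30.3%. Krt42, Krt71, Krt9 and Krt79, the 4 called lower in KO XEN and also lower in WT XEN, passed the filter on low counts only through KO ESC. So did Krt14 and Krt222, called lower in WT XEN only. Krt90, called higher in KO XEN, passed only through KO XEN. Their calls lend no support of their own. The single riser in WT XEN was Krt15, a basal-type keratin, at 0.144 to 0.2882 CPM in KO ESC, 1.808 and 2.295 CPM in WT XEN and 5.735 and 4.523 in KO XEN. Its log2 fold change was 3.22 ± 0.40 in WT XEN and 4.53 ± 0.41 in KO XEN (adjusted p = 0.000279 and 3.51e-05). Krt15 passed the filter only through XEN libraries, so its calls against KO ESC lend no support of their own either.

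Krt42 and Krt17 had their highest levels in ES cells. Krt42, a type I keratin, stood at 19.28, 10.71 and 10.17 CPM in KO ESC and at 0.2466 CPM or less in every XEN library. It fell by 6.57 ± 0.72 on the log2 scale in WT XEN (adjusted p = 0.000142). Since Krt42 passed the filter on low counts only through KO ESC, this call lends no support of its own. Krt17, known from hair follicles and injured skin, stood at 7.045 to 15.75 CPM in KO ESC, 2.411 and 0.6083 CPM in WT XEN and 6.244 and 3.415 in KO XEN, and was called lower in WT XEN (log2 -2.77 ± 0.66, adjusted p = 0.007) but not in KO XEN (log2 -1.11 ± 0.61, adjusted p = 0.136). The difference between KO XEN and WT XEN for Krt17 was 1.66 ± 0.68 with an adjusted p of 0.0788. Krt13, a type I keratin of internal stratified epithelia, was at 1.368 to 3.074 CPM in KO ESC, 0.3836 and 0.1659 CPM in WT XEN and 1.888 and 2.4 in KO XEN (log2 2.96 ± 0.60 between the XEN groups, adjusted p = 0.0053). Krt90 held 1.162 and 1.323 CPM in KO XEN and 0.04803 CPM or less in every other library, and Krt10, a keratin of differentiated epidermis, at 0.6028 to 1.801 CPM was called in no comparison.

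The other type III and type IV filament genes were read as a list of 9, all of them tested. Between the XEN groups 5 were called higher in KO XEN, none lower and 4 were not past the threshold, with a median log2 fold change of 2.23. The shares over all genes were 22.3% higher and 23.9% lower. Nes, which encodes nestin, a type IV protein that copolymerises with vimentin, stood at 8.209 to 30.33 CPM in KO ESC, 60.91 and 38.46 CPM in WT XEN and 425.2 and 331 in KO XEN. It was 7.61-fold higher in KO XEN than in WT XEN (log2 2.93 ± 0.57, adjusted p = 0.00445), with no overlap between groups. Synm, for synemin, a partner of desmin and vimentin, stood at 43.34 and 26.89 CPM in KO XEN and at 7.801 CPM or less in the other libraries (log2 3.17 ± 0.41 against WT XEN, adjusted p = 0.00072). Prph, for the neuronal type III protein peripherin, stood at 37.75 and 21.08 CPM in KO XEN and at 8.261 CPM or less elsewhere (log2 3.24 ± 0.51, adjusted p = 0.00166), and Sync, for the desmin-associated protein syncoilin, gave 2.63 ± 0.47 (adjusted p = 0.00298).

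The neuronal genes Ina and Nefh of that list were highest in ES cells. Ina, for alpha-internexin, stood at 83.24 to 94.62 CPM in KO ESC, 0.6302 and 0.3594 CPM in WT XEN and 3.63 and 1.354 in KO XEN, and Nefh, for the heavy neurofilament subunit, at 36.75 to 71.16 CPM, 6.356 and 2.82, and 2.396 and 0.7692. Both fell in WT XEN (log2 -7.46 ± 0.49 and -3.62 ± 0.55, adjusted p = 1.46e-05 and 0.000763) and in KO XEN (log2 -5.23 ± 0.43 and -5.29 ± 0.64, adjusted p = 2.23e-05 and 0.000154). Against KO ESC the list as a whole gave 4 higher and 3 lower in KO XEN, and 0 higher and 3 lower in WT XEN. Over all genes, 34.8% were higher and 34.3% lower in KO XEN, and 32.2% and 30.3% in WT XEN. Of 7 tested neural markers, 4 were called higher in KO XEN than in WT XEN and none lower, with sums of 108 and 128.4 against 16.15 and 23.12 CPM, and their part in the changes of Prph and Ina was not tested. In KO ESC the same markers summed to 476 to 507.1 CPM. Between the XEN groups, 22.3% of all genes were called higher in KO XEN and 23.9% lower. Of the 2 lens filament genes, Bfsp1 could be tested and was called in no comparison.

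**Figure D4:**
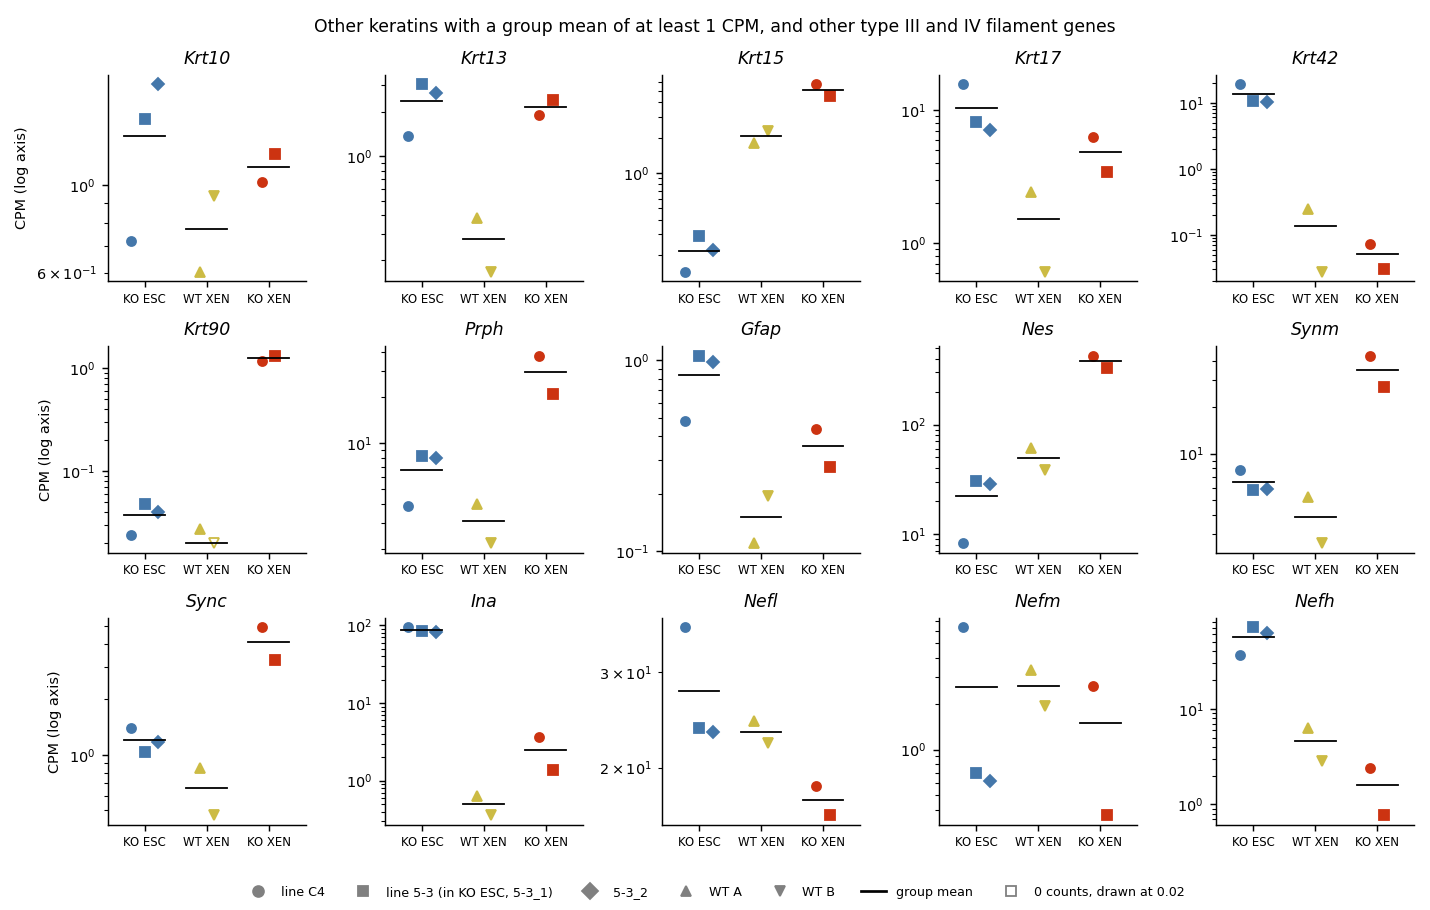
CPM of 6 further keratins and 9 type III and IV filament genes in each library on log axes, with points for libraries and bars for group means; open symbols mark 0 counts. Nes, Synm, Prph and Sync stand highest in both KO XEN libraries, and Ina and Krt42 stand highest in the KO ESC libraries, at 83.24 to 94.62 and 10.17 to 19.28 CPM.

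Cytoplasmic filaments are anchored at desmosomes and other junctions by plakins, plakophilins and cadherins, and 17 such genes were in the table, 13 of them tested. Between the XEN groups 4 were called higher in KO XEN, 3 lower and 6 were not past the threshold, with a median log2 fold change of -0.17. The shares over all genes were 22.3% higher and 23.9% lower. Those higher included Plec, for plectin, which links keratin, vimentin and desmin to other structures, at 768.4 and 598.4 CPM in KO XEN against 191.2 and 158.1 CPM in WT XEN (log2 1.97 ± 0.25, adjusted p = 0.000737). Pkp2, a plakophilin of desmosomes, was higher by 2.92 ± 0.43 on the log2 scale (adjusted p = 0.00133) and Jup, for plakoglobin, by 1.19 ± 0.18 (adjusted p = 0.00158). Perp, a tetraspan membrane protein of desmosomes, was higher by 3.46 ± 0.62 (adjusted p = 0.00296).

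The genes that were lower were the desmosomal cadherins Dsg2 and Dsc2 and the plakophilin Pkp3. Dsg2 stood at 216.3 and 151.6 CPM in WT XEN and at 37.97 and 49.47 CPM in KO XEN, near the 25.36 to 41.65 CPM of KO ESC (log2 -2.07 ± 0.29 between the XEN groups, adjusted p = 0.00109). Dsc2 stood at 0.8401 to 2.702 CPM in KO ESC, 96.91 and 80.82 CPM in WT XEN and 14.3 and 16.09 in KO XEN (log2 -2.54 ± 0.43, adjusted p = 0.00236), and Pkp3 gave -1.28 ± 0.27 (adjusted p = 0.0063). Dsp, for desmoplakin, which ties keratin filaments to the desmosome, rose by 3.76 ± 0.33 in WT XEN and by 3.10 ± 0.33 in KO XEN over KO ESC (adjusted p = 5.08e-05 and 7.66e-05) and gave -0.66 ± 0.35 between the XEN groups (adjusted p = 0.16). Against KO ESC the list gave 7 higher and 3 lower in KO XEN, and 6 higher and 2 lower in WT XEN. Over all genes, 34.8% were higher and 34.3% lower in KO XEN, and 32.2% and 30.3% in WT XEN.

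Among 17 partners of the nuclear lamina, 4 were called higher in KO XEN than WT XEN and 5 lower, and 8 were not past the threshold. These counts are near the shares over all genes, 22.3% higher and 23.9% lower. The median log2 fold change of the list was -0.05. Lbr, the lamin B receptor, stood at 50.6 and 37.69 CPM in KO XEN against 148.1 and 132.3 CPM in WT XEN and a range of 152.2 to 197.2 in KO ESC (log2 -1.67 ± 0.20 between the XEN groups, adjusted p = 0.000607). Emd, for emerin, which binds A-type lamins, stood at 159.3 and 163.8 CPM in KO XEN against 69.02 and 56.4 CPM in WT XEN and a range of 53.48 to 67.82 in KO ESC (log2 1.36 ± 0.18, adjusted p = 0.000748). The LEM-domain gene Lemd2 was higher by 1.16 ± 0.16 (adjusted p = 0.00102) and Tmpo, for the LAP2 proteins, gave -1.09 ± 0.17 (adjusted p = 0.00151). Zmpste24, whose protease matures prelamin A, stood at 57.18 to 65.77 CPM in KO ESC, 125.4 and 132.4 CPM in WT XEN and 73.18 and 58.37 in KO XEN (log2 -0.97 ± 0.17, adjusted p = 0.00251). Against KO ESC the list gave 6 higher and 7 lower in KO XEN, and 8 higher and 6 lower in WT XEN. Over all genes, 34.8% were higher and 34.3% lower in KO XEN, and 32.2% and 30.3% in WT XEN.

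**Figure D5:**
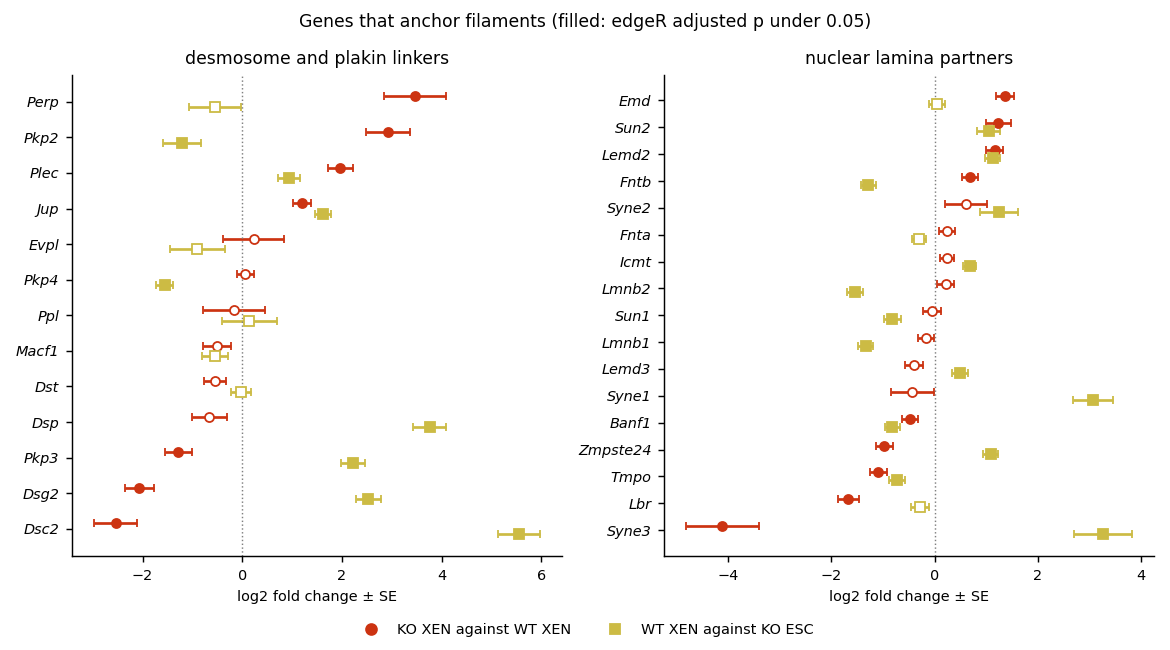
Log2 fold change with its standard error for 13 desmosome and plakin genes and 17 lamina genes, KO XEN against WT XEN in red circles and WT XEN against KO ESC in yellow squares, with filled symbols for an edgeR adjusted p under 0.05. Dsg2 and Dsc2 are called in both comparisons with opposite signs, -2.07 and -2.54 in the first and 2.53 and 5.55 in the second.

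The genes whose pattern was most like each member were taken from 10865 genes by Pearson's r of log2 CPM over the 7 libraries. These libraries fall into 3 groups, so any gene with the same group means gives a high r, and no test was made. For Krt8 they were Ptpn9 (r = 0.999), Trabd and Gas2l1, and for Krt18 they were Lrrc8c (r = 0.998), Prss23 and Rassf1. Ets2, Ccdc80 and Fam3a were most like Krt19 and Col11a1, Ptgs2 and Pfkfb3 most like Krt7, both led by r = 0.9993. Pde4b, Eva1b and Cpne2 followed Krt20 (highest r = 0.999), Midn, Dok1 and Unc45b followed Vim (0.9981), Jph2, Traf4 and Scaf1 followed Des (0.9987), and Srgap1, Tpbg and Esrra followed Lmna (0.9976). An r of at least 0.99 was reached by 203 genes for Krt19, 162 for Krt20, 148 for Krt18 and 141 for Des. It was reached by 46 for Krt8, 38 for Lmna, 29 for Vim and 27 for Krt7, and by none for Krt23, where Vps16 (0.963), Stk17b and Kif21b came nearest.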

How the data were processed

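Alignment used STAR 2.4.2a on mm10 and gene counting used featureCounts 1.4.5-p1, per the submitters' processing notes. The authors deposited raw read counts per Ensembl gene for 43629 genes and 7 libraries. The strand setting of the counting, the handling of reads with several matches and the annotation release are not given in the sources used here. Symbols and lengths come from GENCODE M21, which matched 42548 identifiers, and promoter sequences from RefSeq.

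The tools were edgeR 4.0.16 and DESeq2 1.42.0, with limma 3.58.1, under R 4.3.3. Together the 7 libraries gave 1 edgeR quasi-likelihood fit of the 3 groups with TMM scaling and 4 residual degrees of freedom, and the biological coefficient of variation over all genes was 0.268. The filter on low counts kept 18426 genes and set aside 25203, and a call is a Benjamini-Hochberg adjusted p under 0.05 over the genes kept. CPM are TMM-scaled. Levels per kilobase divide CPM by the length of the main transcript (best APPRIS rank, then longest). The script was tested on simulated data. No 2 libraries agreed within sampling noise, with chi-square values per gene of 25.5 to 125.5 within groups.

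Lines C4 and 5-3 pair KO ESC with KO XEN by their labels, and their differences correlated across genes with r of 0.0797. Line entered as a replicate block in an alternative. Other alternatives were RLE scaling, DESeq2, no filter, a filter of 1 CPM in 2 libraries, only the groups compared, and leaving out both C4 libraries or each library in turn.

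The members, gene lists and naming rule were chosen with earlier results of these data known. The rule named all 9 members, other keratins with a group mean of at least 1 CPM, up to 4 genes per list by smallest adjusted p plus those going against their list, overlapping genes, and the 3 protein-coding genes (group mean of at least 10 CPM) most like each member. Krt5, Wt1, Cubn, Sfn, Zmpste24, Dsp, Lmnb1 and others named outside this rule were chosen after their values were seen.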

Additional observations from a re-analysis of the deposited data

How the results depend on the processing

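Of 374 values of the members under the alternatives, 340 kept their direction and side of the threshold, 19 lost a call, 9 gained one and 6 changed sign. The sign changes all concern uncalled differences. Krt23 between KO XEN and WT XEN was 0.16 (log2) without both C4 libraries and ran from -1.57 to 0.16 when each library was left out. Vim between WT XEN and KO ESC was 0.014 with the replicate block by cell line and ran from -0.88 to 0.40 when each library was left out. The cause was not tested. The number of members called between the XEN groups was 6 without KO ESC C4 and 4 without either KO ESC library of line 5-3. Over all genes, 9431 were called without KO ESC C4, 7623 and 7721 without 5-3_1 and 5-3_2, and 8512 in the main fit. Leaving out a XEN library left 1 in its group. The log2 differences of Krt7 and Krt19 were then 2.83 and 0.93 without WT XEN A, and 1.68 and 0.37 without WT XEN B. They were 1.42 and 0.49 without KO XEN C4, and 2.59 and 0.73 without KO XEN 5-3. With the replicate block the count of members was 4, among 8863 genes, and only the Krt19 call was lost. The count against KO ESC ran from 8 to 9 for KO XEN and from 7 to 8 for WT XEN over all alternatives. For the difference between lines, DESeq2 called 1 member among 225 genes and edgeR 0. The depth of KO XEN C4 (13941826 counts) and the low counts limit Krt23, and 2 libraries in each XEN group limit every comparison between them.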
